A study of Mus musculus with 28 samples.

Results

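The genes described here encode the protein components of the cytosolic ribosome, measured in whole mouse brain during demyelination and remyelination. Members were genes whose mouse symbol fits a pattern for large-subunit (Rpl, Rplp) or small-subunit (Rps, Rpsa) proteins. The pattern leaves out pseudogene symbols and also some ribosomal protein genes, such as Rps3a1 and Rpl36al, which are taken up apart. Members also needed a mean level over 28 libraries of at least 10 CPM (counts scaled to a common library total). This gave 77 of the 55414 genes in the tables, 46 of the large and 31 of the small subunit. The symbol pattern alone matched 83 genes. The members were thus chosen by symbol and by mean level over all libraries, not by any comparison between groups. The set was nonetheless proposed with results of these data known, so no p-value is given for the set as a whole.

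The study used cuprizone, a copper chelator given in the diet that kills oligodendrocytes and strips myelin, which regrows after withdrawal. Each of the 4 groups had 7 whole-brain samples. All mice carried a floxed TNFR1 gene (TNFR1ff), TNFR1 being a receptor for the cytokine TNF, and the TNFR1ff controls had been backcrossed onto C57BL/6. The groups were naive TNFR1ff (coded CPZ0), TNFR1ff at the peak of demyelination (CPZ5), remyelination mgTNFR1KO (CPZ6+1), and remyelination TNFR1ff (CPZ6+1), and the unit of these codes is not stated. The mgTNFR1KO mice also carried Cx3cr1-CreER, a Cre recombinase driven by a promoter active in microglia and related macrophages, and had been given tamoxifen to delete TNFR1 in microglia. The labels do not say whether the TNFR1ff mice received tamoxifen, so the deletion and the Cre, with any tamoxifen given to the knockout group alone, cannot be told apart. They name samples and not animals, so p-values measure the spread between these samples. The labels also name no batch, and age and sex are not given in them.

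A ribosome is built from a small subunit, which reads the messenger RNA, and a large subunit, which joins amino acids. Each subunit is a core of ribosomal RNA bound by single copies of most of its proteins, so a cell makes these proteins in matched amounts. Their messenger RNAs are among the most abundant in any cell and most of them begin with a C followed by a run of pyrimidines, the 5′ terminal oligopyrimidine (TOP) motif. Through this motif, translation of these messages, rather than their transcription, is controlled by the growth-sensing kinase mTOR and the RNA-binding protein Larp1. In brain, local ribosomes in axons, dendrites and fine glial processes depend on the same set of genes.

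The motif was looked for around the start sites of the members in RefSeq promoter sequences of the mouse build GRCm38.p6, which is not the build of the authors' tables (GRCm39). The sequences are shown so that the run can be seen both in genes called higher below and in genes that were not. The search was for a C at the annotated start followed by at least 4 C or T, on the gene's own strand only. Of the 77 members, 57 had an entry, and 13 of these (22.8%) held the run exactly at an annotated start, against 813 of 27025 genes in the promoter table (3.01%). Within 5 bases of the start on either side it was found in 28 of the 57 members (49.1%) and in 21.2% of all genes. Annotated starts can lie a few bases from the true cap, and no match says only that the letters are absent from that window. Each line below gives 15 bases before and 15 bases from the annotated start, 5′ to 3′, with the run at the start in capitals.
Rps15a: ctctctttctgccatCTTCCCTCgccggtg
Rps18: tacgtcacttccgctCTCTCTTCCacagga
Rps27: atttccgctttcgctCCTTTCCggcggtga
Rplp2: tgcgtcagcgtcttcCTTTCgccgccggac
Rpl28: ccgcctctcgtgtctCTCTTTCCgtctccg
Rps6: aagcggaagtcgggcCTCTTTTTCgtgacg
Rpl15: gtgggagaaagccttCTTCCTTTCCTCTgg
Rpl10: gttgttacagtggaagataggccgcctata

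These windows lie at chr7:118116133-118116162 on the minus strand (Rps15a), chr17:33955651-33955680 on the minus strand (Rps18), chr3:90213634-90213663 on the minus strand (Rps27), chr7:141447636-141447665 on the plus strand (Rplp2), and chr7:4792950-4792979 on the plus strand (Rpl28). The others lie at chr4:86857353-86857382 on the minus strand (Rps6), chr14:18270972-18271001 on the minus strand (Rpl15) and chrX:74270801-74270830 on the plus strand (Rpl10). The first 5 belong to genes called higher in at least one comparison below. Rps6, the small-subunit protein phosphorylated by S6 kinase, and Rpl15 hold the run and were called in neither demyelination nor remyelination against naive, while Rpl10 has no run at its annotated start and had the smallest p-value of the family in both. Among members called in demyelination or remyelination against naive, 5 of 15 with an entry held the run at a start, and among those called in neither, 8 of 42 did.

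Libraries were made with the QuantSeq 3′ forward kit, which reads the 3′ end of polyadenylated transcripts, so a long and a short transcript count alike and levels are compared between genes without a length term. Library totals ranged from 1522919 to 3137252 counts. The members together took 1.57 to 3.21% of a library's counts. A single unnamed gene identifier, ENSMUSG00000119584.1, took 1.33% of counts in knockout library 1 and 25.5% in naive library 1, against 5.68 to 17.1% in the other 26 libraries. Library 1 was at an extreme of every group for this identifier, highest in naive and lowest elsewhere. It took 5.68% in demyelination library 1 and 5.84% in remyelination TNFR1ff library 1. Levels given below are therefore CPM scaled by TMM, which sets library sizes from the bulk of genes rather than from the total, except where plain CPM is stated. The tissue label was checked against brain markers, and the neuronal (Snap25, Syt1, Rbfox3, Nefl and Stmn2), oligodendrocyte, astrocyte and microglial lists were all detected, with 5 of 5, 5 of 5, 4 of 4 and 8 of 8 genes tested.

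Members spanned a 49.7-fold range of mean level, and most sat close together. The median was 285 CPM, and 65 of the 77 lay between 100 and 500 CPM. The highest were Rps29 at 1273 CPM, Rpl37 at 1049 CPM and Rps23 at 1033 CPM, followed by Rpl6 at 723 CPM and Rpl13a at 687 CPM. Rps29 and Rpl37 are small zinc-binding proteins, and Rps23 lies at the decoding centre where codon and anticodon meet. The lowest were Rps27l at 25.6 CPM, Rpl18 at 87.8 CPM, Rps9 at 118 CPM, Rpl22 at 121 CPM and Rpl10a at 125 CPM. Median levels of the large and small subunit genes were 277 and 288 CPM. Reads at 3′ ends can be lost or shared where processed pseudogenes copy a gene. The tables held 300 ribosomal protein pseudogene symbols, and their reads amounted to 2.35% of the members' reads, so single members may be understated.

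**Figure D1:**
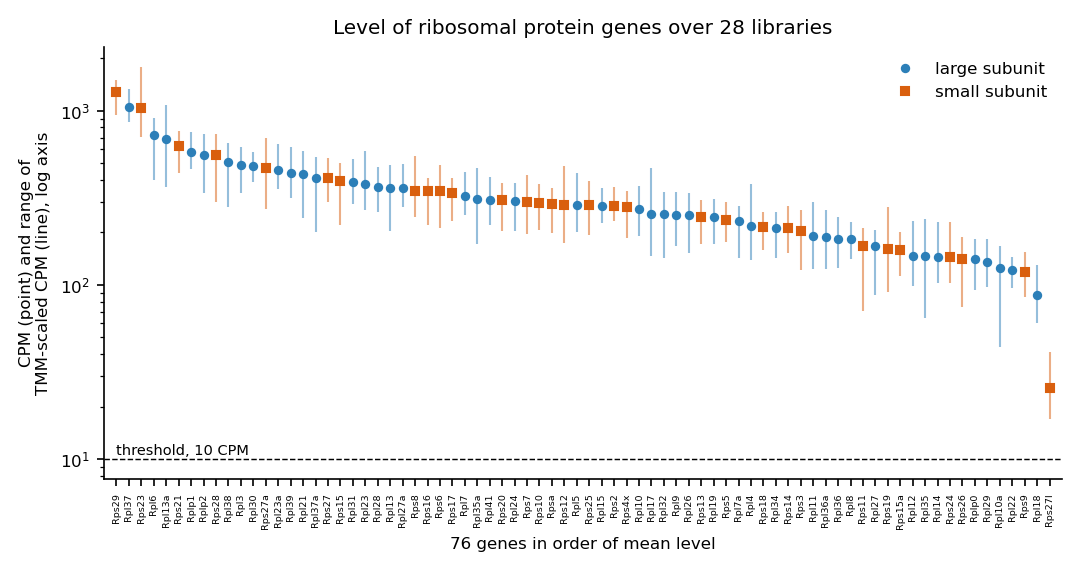
Mean level of 76 of the 77 ribosomal protein genes in CPM (points; circles for the large and squares for the small subunit, log axis) with the range of TMM-scaled CPM over 28 libraries (lines), in order of mean level. Rps29 at 1273 CPM and Rps27l at 25.6 CPM are the ends of a mostly shallow slope, and all genes drawn lie above the dashed threshold of 10 CPM.

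The genes just outside the threshold were copies of other ribosomal protein genes, and so was the member nearest to it on the inside. Rps27l, a close copy of Rps27 that p53 is known to induce, was that member. Just outside were Rps4l at 8.12 CPM, Rpl32l at 3.30 CPM and Rpl6l at 2.12 CPM. Rpl3l, a copy used in striated muscle, averaged 0.255 CPM, Rpl39l averaged 0.120 CPM, and Rpl10l, a copy used in male germ cells, had 0 counts in all 28 libraries, where 3 counts would be 0.956 to 1.97 CPM. Of these 6 genes only Rps4l had enough counts to be tested. All 77 members passed that filter on low counts, among 12423 genes tested. Their spread between libraries of 1 group was narrower than that of most genes, with a median biological coefficient of variation of 14.3% for members and 20.2% for all genes tested.

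At the peak of demyelination, every one of the 77 ribosomal protein genes had a higher fitted mean than in naive brain, by a median of 0.33 on the log2 scale, a fold of 1.26. The log2 fold changes ran from 0.11 to 0.61. Over all 12423 genes tested the median was −0.01, and 49.1% of genes were above 0. By edgeR's quasi-likelihood test, with p-values adjusted over all genes by Benjamini-Hochberg, 17 members were called higher at an adjusted p below 0.05 and 0 were called lower. Of all genes tested, 1.30% were called higher and 0.700% lower. The members are also measured more precisely than most genes, with a median standard error (SE) of 0.109 for members and 0.190 for all genes on the log2 scale. At an unadjusted p below 0.05 there were 63 members, all of them higher, and DESeq2 called 30 higher and 0 lower. The calls were spread over both subunits, with 11 of 46 large-subunit and 6 of 31 small-subunit genes.

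**Figure D2:**
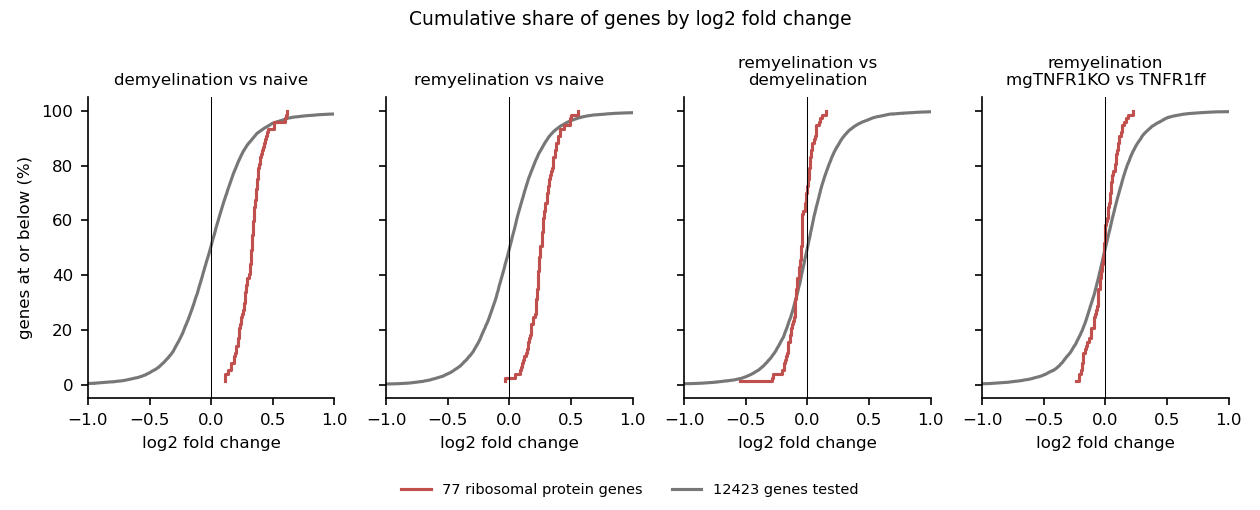
Cumulative share of genes (vertical axis, %) by log2 fold change (horizontal axis) for the 77 ribosomal protein genes in red and all 12423 genes tested in grey, in 4 comparisons. The red curve stands right of the grey one against naive, where the members' medians are 0.33 in demyelination and 0.25 in remyelination, and near 0 in the other 2 panels.

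The summed level of the 77 genes showed the same order in most libraries. It was 23585, 26322 and 30831 TMM-scaled CPM (lowest, median and highest) in demyelination libraries, against 18882, 22159 and 24033 in naive libraries. Demyelination library 7 lay below the highest naive library and the other 6 lay above all naive libraries. Library 1 had the lowest sum in the naive and mgTNFR1KO groups and the highest in the demyelination and remyelination TNFR1ff groups. Counted gene by gene, 23 to 75 of the 77 members were above their own mean over all libraries in demyelination libraries, and 0 to 27 in naive libraries. Members thus moved together within a library, so counts of members above 0, here and below, are not counts of independent results. Naive libraries 1 and 6 were lowest, with median deviations of −0.40 and −0.34 on the log2 scale from the genes' own means. In bulk tissue, a change in the number of cells of a type and a change in RNA per cell cannot be told apart.

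**Figure D3:**
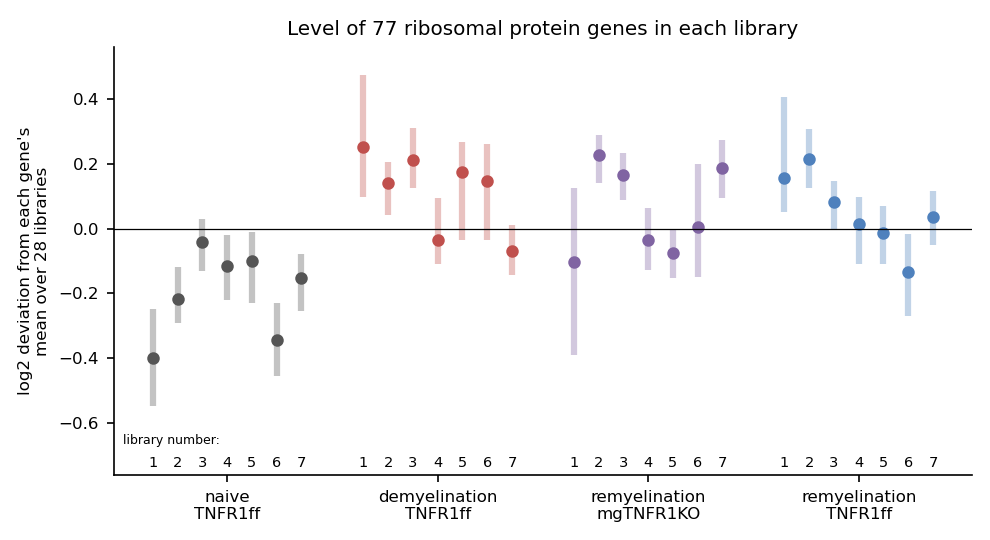
Median log2 deviation of the 77 ribosomal protein genes from each gene's mean over 28 libraries (points) with the middle range from the lower to the upper quartile of genes (bars), by library and group. Naive medians run from −0.40 to −0.04, and those of the other groups from −0.13 to 0.25.

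Among large-subunit proteins, the firmest differences in demyelination included those in Rpl10, Rpl10a and Rpl18. Rpl10, which is added last in large-subunit assembly and sits close to the catalytic centre, had 256, 281 and 331 TMM-scaled CPM (lowest, median and highest) in demyelination libraries, against 190, 209 and 225 in naive libraries. The 2 groups did not overlap, and Rpl10 was higher by 0.46 (log2; SE 0.088, adjusted p = 0.000790).

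Rpl10a, which forms the mobile stalk where used transfer RNA leaves the ribosome, had 120, 140 and 155 TMM-scaled CPM in demyelination libraries, against 44.1, 106 and 109 in naive libraries. The groups did not overlap, and naive library 1, at 44.1, was far below the other 6, which had 82.0 to 109. Rpl10a was higher by 0.61 (log2; SE 0.133, adjusted p = 0.00395). Rpl18, the lowest large-subunit gene, had 84.5, 101 and 130 TMM-scaled CPM in demyelination libraries, against 60.5, 65.6 and 82.6 in naive libraries, without overlap (log2 fold change 0.60, SE 0.137, adjusted p = 0.00792).

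Among small-subunit proteins, Rps15a, Rps19 and Rps18 led. Rps15a had 157, 177 and 185 TMM-scaled CPM in demyelination libraries, against 113, 125 and 147 in naive libraries, without overlap (log2 fold change 0.45, SE 0.090, adjusted p = 0.00151). Rps19, the gene most often mutated in human Diamond-Blackfan anaemia, had 157, 191 and 219 TMM-scaled CPM in demyelination libraries, against 91.4, 130 and 138 in naive libraries, without overlap (log2 fold change 0.61, SE 0.137, adjusted p = 0.00651). Rps18, in the head of the small subunit, had 203, 241 and 258 TMM-scaled CPM in demyelination libraries, against 159, 181 and 210 in naive libraries, with demyelination library 7 below the highest naive library (log2 fold change 0.40, SE 0.090, adjusted p = 0.00766). The calls of Rpl10, Rpl10a, Rpl18, Rps15a, Rps19 and Rps18 held under every one of 24 alternative analyses.

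A further 10 genes were called nearer the threshold. Rpl23a, which lies beside the exit tunnel for new proteins, was higher by 0.36 (log2, adjusted p = 0.0171) and Rpl7 by 0.38 (log2, adjusted p = 0.0205). Rps27 had 408, 448 and 532 TMM-scaled CPM in demyelination libraries, against 298, 363 and 398 in naive libraries, without overlap (log2 fold change 0.37, SE 0.094, adjusted p = 0.0205). For Rpl27 the log2 fold change was 0.42 with an adjusted p of 0.0227, and for Rpl29 it was 0.37 with an adjusted p of 0.0343. The remaining calls were Rps4x, Rpl19, Rpl24, Rps15 and Rpl21, with adjusted p-values from 0.0381 to 0.0495. The call ended for Rpl23a without demyelination library 6 (adjusted p = 0.0810), for Rpl7 without demyelination library 3 or naive library 1 or 6 (up to 0.0562), for Rps27 without demyelination library 3 or 6 or naive library 1 or 6 (up to 0.0723), for Rpl27 without demyelination library 3 or naive library 1 or 2 (up to 0.0632), and for Rpl29 in 8 of 24 alternatives (up to 0.107). In all, 9 members had no overlap between demyelination and naive libraries, demyelination being higher, against 0.910% of all genes tested. Rps26 was the one of these 9 that was not called (adjusted p = 0.0504).

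**Figure D4:**
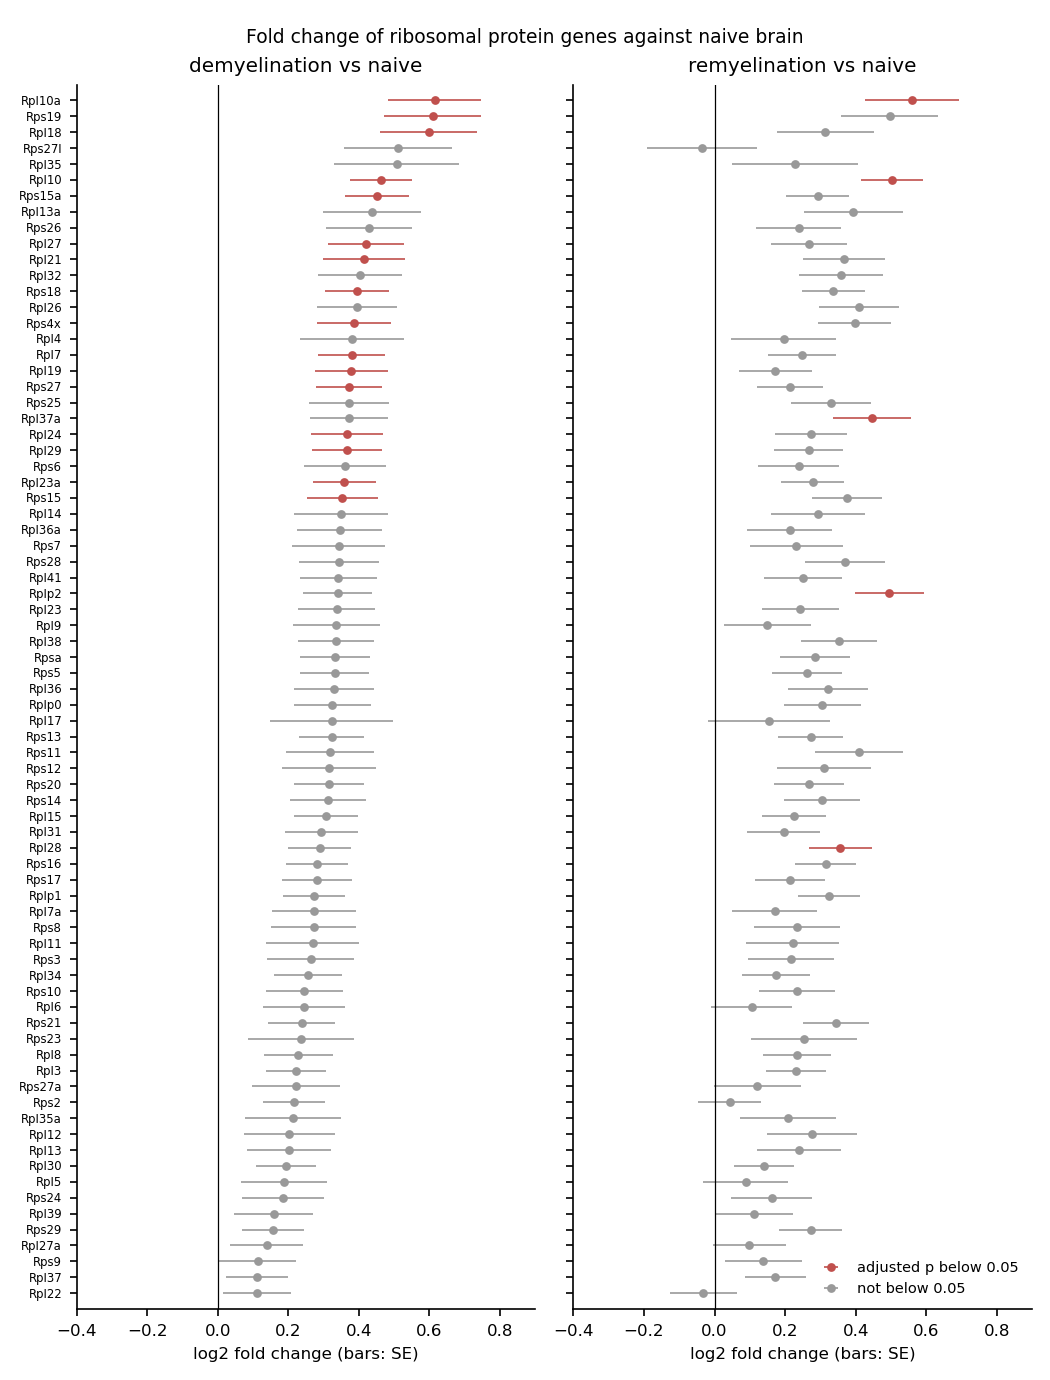
Log2 fold change of 76 of the 77 ribosomal protein genes against naive (points; bars are SE), in demyelination (left) and remyelination (right), in the order of the demyelination values. Red marks the genes drawn that were called (16 on the left and 5 on the right) at an adjusted p below 0.05. Rps27l, called in neither panel, stands apart between them with 0.51 in demyelination (adjusted p = 0.0721) and −0.04 in remyelination.

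At the lower end, Rpl22, an RNA-binding protein not needed for general translation, had 112, 129 and 144 TMM-scaled CPM in demyelination libraries, against 95.3, 120 and 135 in naive libraries. These groups overlapped over most of their range, and the difference of 0.11 on the log2 scale (SE 0.096) had an adjusted p of 0.679. Rpl37 and Rps9 likewise differed by 0.11 on the log2 scale, with adjusted p-values of 0.632 and 0.722. The median difference was somewhat smaller at higher level, which was not tested. The 26 members of lowest level had a median log2 fold change of 0.35, the middle 25 had 0.33 and the 26 of highest level had 0.28, and 8, 5 and 4 of them were called.

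The count of 17 moved with the libraries and settings used. It was 8 without naive library 1, 8 without demyelination library 3, 9 without demyelination library 6 and 11 without naive library 2. It was 24 without demyelination library 7 and 30 with the mitochondrial share of counts as covariate. The median log2 fold change stayed between 0.29 and 0.36, with all 77 genes above 0, whichever single demyelination or naive library was left out. Without naive library 1 and knockout library 1 together, the libraries at the extremes of the most abundant gene, the count was 17. Leaving out naive library 1 alone gave 8.

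In remyelination TNFR1ff brain, 75 of the 77 genes were above naive, by a median log2 fold change of 0.25, a fold of 1.19, where 50.4% of all genes tested were above 0 with a median of 0.00. There were 6 members called higher, all of the large subunit, and 0 called lower, where 0.451% of all genes were called higher and 0.177% lower. None of the 31 small-subunit genes was called by edgeR, although 21 of them had an unadjusted p below 0.05 and DESeq2 called 6. The difference between the subunits was not tested, and their median log2 fold changes were 0.25 (large) and 0.27 (small). Over the whole set, 48 members had an unadjusted p below 0.05 and DESeq2 called 14. The genes below 0 were Rps27l, at −0.04, and Rpl22, at −0.03.

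The genes called included Rpl10, Rplp2, Rpl10a, Rpl37a and Rpl28. Rpl10 had 257, 282 and 367 TMM-scaled CPM in remyelination libraries, against 190, 209 and 225 in naive libraries, without overlap (log2 fold change 0.50, SE 0.088, adjusted p = 0.000496). Rplp2 is an acidic protein of the stalk that recruits elongation factors. It had 474, 635 and 711 TMM-scaled CPM in remyelination libraries, against 335, 431 and 482 in naive libraries, so a single remyelination library lay below the highest naive one (log2 fold change 0.50, SE 0.097, adjusted p = 0.00295). The calls of Rpl10 and Rplp2 held under all 24 alternatives.

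Rpl10a had 117, 134 and 157 TMM-scaled CPM in remyelination libraries, against 44.1, 106 and 109 in naive libraries, without overlap (log2 fold change 0.56, SE 0.133, adjusted p = 0.0268). That call ended without naive library 1, 2 or 6 and without remyelination library 2, 3 or 6, with adjusted p up to 0.0719.

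Rpl37a, a zinc-finger protein of the large subunit, had 412, 451 and 544 TMM-scaled CPM in remyelination libraries, against 200, 358 and 400 in naive libraries, without overlap (log2 fold change 0.45, adjusted p = 0.0414). Rpl28 had 316, 388 and 433 TMM-scaled CPM in remyelination libraries, against 263, 303 and 344 in naive libraries, with overlap (log2 fold change 0.36, adjusted p = 0.0463). These last calls were the least stable of the 6, ending in 13 and 15 of the 24 alternatives, with adjusted p up to 0.135 for Rpl37a and 0.147 for Rpl28. In all, 7 members did not overlap with naive libraries and were higher, against 0.435% of all genes tested. The count of 6 was 2 without remyelination library 2, 3 without remyelination library 3 or naive library 1, 5, 6 or 7, and 4 without naive library 2 or remyelination library 4, 5 or 7, while the median log2 fold change stayed between 0.22 and 0.29. Without naive library 1 and knockout library 1 together it was 5, without the 4 libraries numbered 1 it was 10, and with the mitochondrial share as covariate it was 14.

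**Figure D5:**
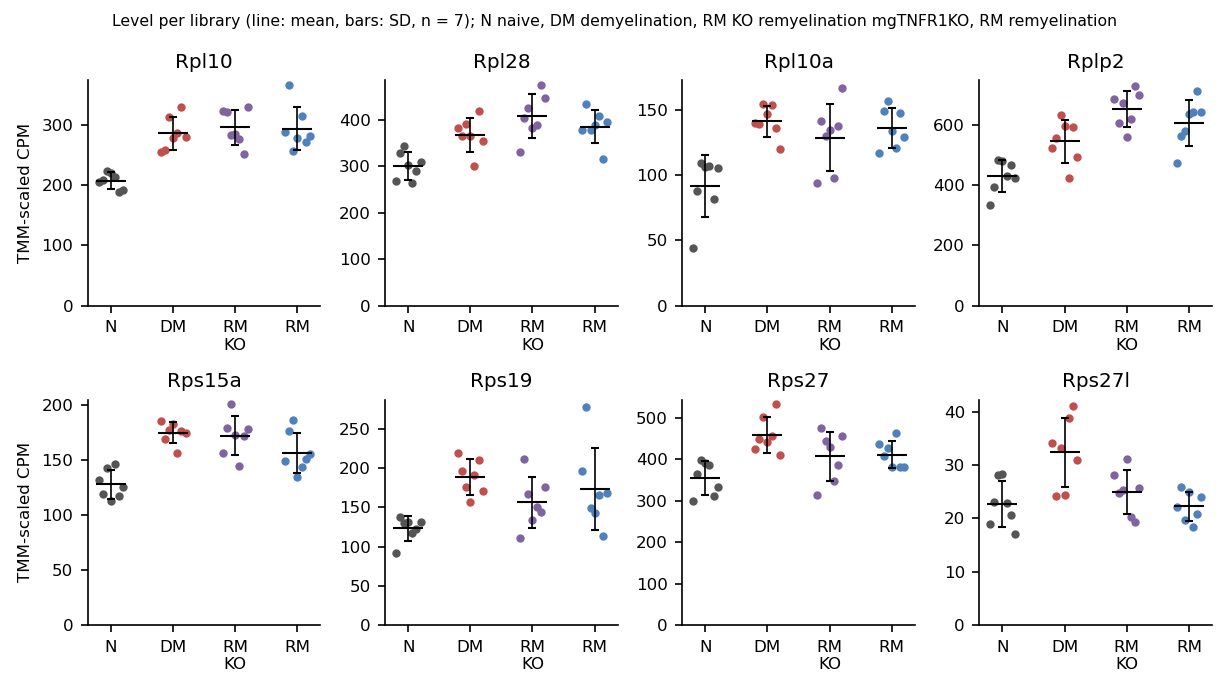
TMM-scaled CPM of 8 ribosomal protein genes in each library (points), with the mean (line) and SD (bars, n = 7), for naive (N), demyelination (DM), remyelination mgTNFR1KO (RM KO) and remyelination TNFR1ff (RM). Rpl10 lies above all naive libraries in the other 3 groups. Rps27l has its highest mean in demyelination, where it overlaps the naive libraries and was not called against them.

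Among the 17 members called in demyelination and the 6 called in remyelination, both against naive, 3 were in common, Rpl10 and Rpl10a among them, which is 17.6% of the 17 and 50% of the 6. Both comparisons share the 7 naive libraries, so calls in common are not independent. The overlap over all genes called was not counted, so these shares are not read as a trait of the family.

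Between the stages themselves, remyelination TNFR1ff against demyelination TNFR1ff, no member was called by edgeR or DESeq2, where 0.386% of all genes tested were called in either direction. At an unadjusted p below 0.05 there were 3 members, all lower in remyelination. The median log2 fold change was −0.05, and 21 of 77 genes were above 0, against 50.2% of all genes tested. As members move together within a library, these are not 77 separate results. The widest difference was in Rps27l, with 18.3, 22.0 and 25.8 TMM-scaled CPM in remyelination libraries, against 24.1, 33.1 and 41.1 in demyelination libraries. These overlapped at their ends, and the log2 fold change of −0.55 (SE 0.151) had an adjusted p of 0.130. Its parent Rps27 differed by −0.16 (log2; SE 0.093, adjusted p = 0.837) in the same comparison. Rpl18 followed at −0.28 (adjusted p = 0.716), then Rpl35 at −0.28 (adjusted p = 0.869). By p-value Rpl19 was next after Rpl18, at −0.21 (adjusted p = 0.749). The summed level was 23223, 25920 and 29341 TMM-scaled CPM in remyelination libraries, against 23585, 26322 and 30831 in demyelination libraries, which overlapped almost completely.

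In remyelination, the microglial deletion of TNFR1 was accompanied by no called ribosomal protein gene in edgeR or DESeq2, where 0.0483% of all genes tested were called in either direction. An unadjusted p below 0.05 was reached by 2 members, 1 higher and 1 lower. Log2 fold changes ran from −0.24 to 0.23 with a median of −0.01, and 32 of 77 genes were above 0, against 49.9% of all genes tested. The summed level was 23403, 25554 and 29094 TMM-scaled CPM in mgTNFR1KO libraries, against 23223, 25920 and 29341 in TNFR1ff libraries. The extremes were Rpl27a, at 0.23 (adjusted p = 0.646), and Rps9, at −0.24 (adjusted p = 0.646). Rps9 had 84.9, 108 and 141 TMM-scaled CPM in mgTNFR1KO libraries, against 107, 128 and 155 in TNFR1ff libraries, and the groups overlapped. With a median SE of 0.108 per gene on the log2 scale, the lack of calls does not show that the groups were alike.

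The knockout group was also set against naive, a comparison added after the data were seen. There, 74 of 77 members were above naive, where 50.6% of all genes tested were above 0. The members' median log2 fold change was 0.25. Of the members 18 were called higher and 0 lower, where 1.54% of all genes were called higher and 1.71% lower. An unadjusted p below 0.05 was found for 47 members, and DESeq2 called 22. Rplp2 led, with 560, 671 and 729 TMM-scaled CPM in mgTNFR1KO libraries, against 335, 431 and 482 in naive libraries, without overlap (log2 fold change 0.60, SE 0.097, adjusted p = 0.000155). Its stalk partners were also called, Rplp1 with a log2 fold change of 0.36 (adjusted p = 0.0145) and Rplp0, the base of the stalk, with 0.44 (adjusted p = 0.0187). The call of Rplp1 ended without knockout library 6 (adjusted p = 0.0512) and that of Rplp0 with the mitochondrial share as covariate (adjusted p = 0.0577).

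Rpl10 had 253, 285 and 330 TMM-scaled CPM in mgTNFR1KO libraries, against 190, 209 and 225 in naive libraries, without overlap (log2 fold change 0.51, adjusted p = 0.000391). Rpl28 (log2 fold change 0.44, adjusted p = 0.00419), Rps15a (0.43, 0.00510), Rpl29 (0.45, 0.00683), Rpl3 (0.38, 0.00756) and Rps15 (0.41, 0.0138), like Rplp2 and Rpl10, were called under all 24 alternatives. Rpl3 lies at the peptidyl transferase centre. There were 6 members without overlap with naive libraries, all higher, against 0.563% of all genes tested. The count of 18 was 10 without naive library 1 or knockout library 2, 6 or 7, 11 without knockout library 3, 12 without naive library 2, 29 without knockout library 1, and 25 without naive library 1 and knockout library 1 together. Against naive, 30 of the 77 members were called in at least 1 of the 3 groups, 3 in all of them (Rpl10 and Rpl10a among these), and 47 in none. All 3 comparisons share the naive libraries, among which library 1 stood apart. The matching counts over all genes were not made.

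Ribosomal proteins that the symbol pattern leaves out were not called in demyelination. Of 7 tested, Rps3a1 and Rpl36al among them, 0 were called by edgeR and 5 had an unadjusted p below 0.05. DESeq2 called 2, and the median log2 fold change was 0.27. Fau, which encodes a small-subunit protein fused to a ubiquitin-like protein, had 349 ± 48.9 TMM-scaled CPM in demyelination and 269 ± 39.7 in naive libraries (SD, n = 7 each; log2 fold change 0.37, adjusted p = 0.0527). Rack1, a signalling scaffold on the small subunit, differed by 0.37 on the log2 scale with an adjusted p of 0.0737. Rpl22l1, the paralogue of Rpl22, had 131 ± 33.7 TMM-scaled CPM in demyelination and 131 ± 19.9 in naive libraries (SD, n = 7 each). In remyelination 0 of the 7 were called, 3 had an unadjusted p below 0.05 and DESeq2 called 0. Fau was called in the knockout group against naive (log2 fold change 0.38, adjusted p = 0.0389), and that call ended in 11 of 24 alternatives, among them leaving out knockout library 2, 3, 6 or 7 or naive library 1, 2, 5 or 6, with adjusted p up to 0.0958.

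Translation elongation factors and other genes known for a TOP motif formed a list of 17. In demyelination 15 of the 17 were above 0, against 49.1% of all genes tested, with a median log2 fold change of 0.18 over the list. Called were 3 of the 17, all higher, where 1.30% of all genes tested were called higher. They were Eef1d (0.51, adjusted p = 0.0165) and Eef1b2 (0.46, adjusted p = 0.0205), both exchange-factor subunits that reload elongation factor eEF1A, and Naca (0.33, adjusted p = 0.0364), a chaperone at the exit tunnel. Eef1a1, the elongation factor itself, had 1677 ± 216 TMM-scaled CPM in demyelination and 1372 ± 108 in naive libraries (SD, n = 7 each; log2 fold change 0.29, adjusted p = 0.103). The Eef1d call held under all 24 alternatives. That of Eef1b2 ended without demyelination library 1 or naive library 1, 2 or 6 (adjusted p up to 0.0660), and that of Naca ended in 9 alternatives, among them leaving out demyelination library 1, 3 or 5 or naive library 1, 2, 3 or 6 (adjusted p up to 0.113). In remyelination against naive only Eef1d was called of the 17 (0.53, adjusted p = 0.0242), where 0.451% of all genes were called higher, and DESeq2 called 2. The remyelination call of Eef1d ended in 8 alternatives, among them leaving out remyelination library 1, 2 or 7 or naive library 1, 2, 3 or 5 (adjusted p up to 0.0745).

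Of 35 genes for ribosome assembly tested in demyelination, 0 were called by edgeR or DESeq2, 1 had an unadjusted p below 0.05 and the median log2 fold change was 0.03. Ncl, a nucleolar protein of ribosomal RNA production, had 327 ± 36.7 TMM-scaled CPM in demyelination and 346 ± 40.9 in naive libraries (SD, n = 7 each; adjusted p = 0.777). In remyelination against naive edgeR called 0, DESeq2 called 1 and 5 had an unadjusted p below 0.05, the smallest being that of Nhp2, a protein of small nucleolar RNA complexes (log2 fold change 0.79, adjusted p = 0.0565). In the knockout group against naive 2 of the 35 were called, Bysl (0.63, adjusted p = 0.00953) and Nhp2 (0.82, adjusted p = 0.0185), where 1.54% of all genes were called higher.

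Of 21 tested genes around mTOR, which controls TOP translation, 2 were called in demyelination, 1 higher and 1 lower. Of all genes tested, 1.30% were called higher and 0.700% lower. Eif4ebp1, an inhibitor of cap-dependent translation that mTOR inactivates, had 10.3 ± 4.92 TMM-scaled CPM in demyelination and 3.74 ± 2.02 in naive libraries (SD, n = 7 each), a log2 fold change of 1.41 (adjusted p = 0.0403). That call ended in 11 of 24 alternatives, 9 of them leaving out naive library 1, 2, 5 or 6 or demyelination library 3, 4, 5, 6 or 7, with adjusted p up to 0.117. Few reads underlie the naive level of Eif4ebp1, since 3 counts equal 1.40 to 1.97 plain CPM in naive libraries. Ddit4, an mTOR inhibitor induced by stress and glucocorticoids, was lower, at 31.6 ± 6.99 TMM-scaled CPM in demyelination and 46.8 ± 5.93 in naive libraries (SD, n = 7 each; log2 fold change −0.57, adjusted p = 0.0156), a call that ended without demyelination library 6 and under library totals (adjusted p up to 0.0584). Ddit4 was also lower in remyelination TNFR1ff than in naive brain (−0.89, adjusted p = 8.88e-05) and higher in mgTNFR1KO than in TNFR1ff brain in remyelination (0.71, adjusted p = 0.0261). The call between genotypes ended in 11 of 24 alternatives, among them leaving out knockout library 1, 2 or 4 or TNFR1ff library 1, 2, 3 or 6, with adjusted p up to 0.112. In demyelination the log2 fold change of Mtor was 0.26 with an adjusted p of 0.510, and that of Larp1 was 0.07 with an adjusted p of 0.872.

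Mitochondrial ribosomal proteins, which serve the separate ribosome inside mitochondria, had 2 of 75 called in demyelination, Mrps6 (log2 fold change 0.71, adjusted p = 0.0168) and Mrpl52 (0.61, adjusted p = 0.0252), and a median log2 fold change of 0.16. This is 2 of 75 where 1.30% of all genes were called higher, so the count is near the share over all genes. Above 0 were 57 of the 75, against 49.1% of all genes tested. The call of Mrpl52 ended without demyelination library 3 or 6 or naive library 4, 6 or 7 (adjusted p up to 0.0934). In remyelination against naive 0 were called by edgeR or DESeq2, 5 had an unadjusted p below 0.05 and the median was 0.11. There 55 of the 75 were above 0, against 50.4% of all genes tested.

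Cell-type markers moved across the same comparisons. The summed level of 8 microglial markers, among them Cx3cr1, Csf1r and C1qa, was 328 to 455 TMM-scaled CPM in demyelination libraries, against 165 to 230 in naive libraries. Of the 8, 6 were called higher, while P2ry12 and Tmem119 were below 0, and the lowest log2 fold change was −0.49. In mgTNFR1KO against naive libraries 4 were called higher and 1, P2ry12, lower. In remyelination the microglial sum was 257 to 340 in mgTNFR1KO libraries, against 293 to 362 in TNFR1ff libraries. Between these groups only Cx3cr1 was called of the 8 (log2 fold change −0.89, adjusted p = 0.0365), while 3 were above 0. That call ended in 14 of 24 alternatives, with adjusted p up to 0.324. Cx3cr1 also names the Cre driver of the knockout group, and the part of that driver in this level was not tested. The sum of 5 oligodendrocyte markers, Mbp and Mog among them, was 2394 to 3395 TMM-scaled CPM in demyelination libraries, against 5751 to 6723 in naive libraries, with 5 of 5 called lower. It was 4948 to 6407 in remyelination TNFR1ff libraries, where 0 of the 5 were called against naive (2 with an unadjusted p below 0.05, DESeq2 0). The sum of 5 neuronal markers was 4241 to 4964 in demyelination libraries, against 4455 to 5033 in naive libraries, with 0 of 5 called and none at an unadjusted p below 0.05. Mitochondrial transcripts, a sign of RNA quality, took 9.90 to 14.1% of counts in demyelination libraries, against 9.66 to 14.5% in naive libraries, and were 8.39 to 14.4% in mgTNFR1KO libraries, against 10.3 to 14.2% in remyelination TNFR1ff libraries. Red blood cell markers summed to 509 to 1132 in mgTNFR1KO libraries and 363 to 716 in remyelination TNFR1ff libraries, against 249 to 499 in naive libraries, with 4 of 4 called higher in mgTNFR1KO and 1 of 4 in TNFR1ff remyelination. Of 4 astrocyte markers, 1 was called higher against naive in each of the 3 other groups, Gfap, a filament protein of reactive astrocytes, with log2 fold changes of 1.82 in demyelination, 1.59 in remyelination mgTNFR1KO and 1.34 in remyelination TNFR1ff. The part of these markers in the ribosomal protein differences was not tested.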

How the data were processed

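Whole-brain RNA of 28 mouse samples, 7 in each of 4 groups, was measured by 3′ tag sequencing. The authors deposited RSEM gene results per library, and the expected counts in them, per the file headers, were used here after rounding (96.6 to 97.7% were whole within 0.005). Build GRCm39 and the tools cutadapt, STAR, RSEM, FastQC and edgeR are listed, per the submitters' processing notes, and their settings, annotation release and strand mode were not given in the sources used here. RSEM can divide reads between a gene and near-identical copies, so ribosomal protein counts may lose or gain reads from pseudogenes. Symbols came from GENCODE M21 by identifier (52081 of 55414 genes).

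Counts were tested with edgeR 4.0.16 (R 4.3.3): TMM, filterByExpr (12423 genes kept), quasi-likelihood fit of all 28 libraries with 1 mean per group, Benjamini-Hochberg over all genes tested, threshold 0.05. SE is the log2 fold change divided by the root of the F statistic. DESeq2 1.42.0 was an alternative, and limma 3.58.1 was loaded with edgeR. The scripts were tested on simulated counts. Other alternatives were library totals with and without the most abundant gene, no filter on low counts, a replicate block, the mitochondrial share as covariate, only the 2 groups compared, and each library left out. A fit with a library left out was read only for comparisons that include the group of that library. After the data were seen, the knockout against naive comparison, the share of the most abundant gene as covariate and leaving out the 4 libraries numbered 1 were added.

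Members and gene lists were chosen with earlier results of these data known. Genes were named by rule: the 5 highest and 5 lowest members, those on either side of the 10 CPM threshold, the called members (the 12 of smallest p where more were called, the 5 of smallest p where fewer than 5), the largest and smallest changes, paralogues with parent genes, and called genes of the other lists. Rps26, Rpl15, Rps6, Rpl22l1, Rack1, Eef1a1, Ncl, Mtor and Larp1 were picked after their values were seen. Totals of 1522919 to 3137252 counts put 3 counts at 0.956 to 1.97 CPM, which covers counting error only. Replicates differed beyond sampling noise (smallest chi-square per degree of freedom 2.58). Results of some genes are not reported here.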

Additional observations from a re-analysis of the deposited data

Results flagged for a closer look

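Of 68 groups of 7 values checked, 4 held a library whose gap to its nearest neighbour was large against the whole range, and chance gives about 1 such group in 20. Rpl10a had 44.1 TMM-scaled CPM in naive library 1, where the other 6 naive libraries had 82.0 to 109. Without that library Rpl10a stayed called in demyelination and lost its call in remyelination, both against naive. Rpl37a had 544 TMM-scaled CPM in remyelination TNFR1ff library 2, where the other 6 had 412 to 463, and its call against naive ended without that library. Rps23 had 1659 TMM-scaled CPM in remyelination TNFR1ff library 1, where the other 6 had 775 to 1151, and was called in no comparison. The most abundant gene identifier took 25.5% of the counts of naive library 1, where the other 6 naive libraries had 8.36 to 10.2%.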

How the results depend on the processing

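The direction of the family against naive did not depend on any setting run: each comparison's median log2 fold change moved by less than the SD between libraries of a group, in all 50 values from other settings and all 70 from leaving out a library. The count of called members moved more, with single libraries left out only from the groups being compared. In demyelination it was 17, and 29 with a replicate block, 30 with the mitochondrial share as covariate, 30 in DESeq2, and 8 to 24 when each library was left out. In remyelination TNFR1ff it was 6, and 13 with the replicate block, 14 with the mitochondrial share, 14 in DESeq2, 10 without the 4 libraries numbered 1, and 2 to 8 when each library was left out. For the knockout group against naive it was 18, and 10 to 29 when each library was left out. It was 0 throughout in remyelination against demyelination and in mgTNFR1KO against TNFR1ff. The cause of these moves was not tested. Calls held under all 24 alternatives for 7 of 17, 2 of 6 and 8 of 18 members. Same-numbered libraries of different groups had correlated deviations of −0.13 to 0.30, with the own number best for 1 to 3 of 7, where chance gives 1 of 7. The labels state no pairing and the main fit used none, although the replicate block raised the demyelination and remyelination TNFR1ff counts. Whether the numbers mark a shared source was not tested. At totals of 1522919 to 3137252 counts and 7 libraries a group, most single members did not pass adjustment over 12423 genes.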
